A study of Rattus norvegicus with 7 samples.

Results

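Caspases, Bcl2 family proteins and p53 target genes were examined as 9 genes in cultured rat hippocampal cells exposed to grape seed extract, a polyphenol-rich product. The genes were Casp1, Casp2, Casp6, Bax, Bcl2, Bcl2l1, Cdkn1a, Ccng1 and Mdm2, and all 25 probe sets that the platform annotation gives them were used, of 8740 probe sets on the array without controls and 4736 distinct gene symbols. The 9 genes were chosen from measured values of these same 7 arrays, so everything about them is a description, and no test is given. Neurons received 0, 1 or 10 µg/ml of extract and astrocytes 0, 1, 10 or 100 µg/ml, for 24 h, with 1 array for each of the 7 combinations. All groups were primary hippocampal cultures of Wistar rats, labelled 17 days old, grown in DMEM with N1 supplement, glutamine and antibiotics, and the labels do not say how many animals gave a culture. With 1 array per combination the signals have no replicate error, and no order between neighbouring arrays can be set against a replicate spread.

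Caspases are proteases that cut after aspartate: some carry out apoptosis, while caspase 1 matures interleukin 1β in the inflammasome. Proteins of the Bcl2 family decide whether the outer mitochondrial membrane is opened: Bax forms the pore, and Bcl2 and Bcl-xL, the product of Bcl2l1, hold it closed. The transcription factor p53 switches on genes for cell cycle arrest, such as Cdkn1a, which encodes the inhibitor p21, and for its own control, such as Mdm2, the ubiquitin ligase that sends p53 to degradation. Cyclin G1, from Ccng1, is another p53 target and a partner of a phosphatase subunit that acts on Mdm2.

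The promoters of Ccng1 and Cdkn1a are shown first because, of these p53 targets, the deposited signal at 100 µg/ml was lower than untreated for the first and higher for the other, and that of Casp1 because its probe sets disagreed in neurons. The windows run from 250 bases before to 50 after each transcription start and are from RefSeq on GRCr8. They were found for 8 of the 9 genes (for Bax none was matched). Only the promoters named above are shown, and each held a motif that was searched for. Mdm2, also a p53 target, had a window that is not shown. Capitals mark a p53 half-site in Ccng1 and Cdkn1a, whose first base lies 232 and 201 bases before the start, and in Casp1 an interferon-response motif, 2 copies of GAAA with any 2 bases between, read here on the opposite strand 28 bases before the start. The stretches are at chr10:25685054-25685126 (minus strand), chr20:7150686-7150785 (plus strand) and chr8:10872757-10872856 (plus strand).
Ccng1: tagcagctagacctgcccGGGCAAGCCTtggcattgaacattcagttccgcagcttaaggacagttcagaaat
Cdkn1a: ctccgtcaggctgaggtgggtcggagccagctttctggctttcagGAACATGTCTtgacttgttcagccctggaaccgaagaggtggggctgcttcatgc
Casp1: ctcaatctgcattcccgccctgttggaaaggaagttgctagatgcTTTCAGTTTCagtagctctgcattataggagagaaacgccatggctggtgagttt
Both strands of 33469 such promoter windows were searched, and the p53 half-site was in 7.98% of them, the interferon-response motif in 3.92% and the AP-1 motif TGANTCA, which no window of the 9 genes held, in 7.33%. A match is a string of letters and not a measured site of binding.

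The values are the deposited signals, array intensities on a linear scale. A floor of 17.9, the 25th percentile of the signals, was set before log2 was taken, and each gene was represented by its brightest probe set. A change of 2-fold or more was called. Over the 25 probe sets, 14 had a mean signal in neurons above the median of all signals, 79.9, and 14 in astrocytes, while 2 were under the floor on every array. The 100 µg/ml astrocyte array stood apart: its mean correlation with the other astrocyte arrays was 0.938, against 0.963 to 0.968 for the other 3 astrocyte arrays. Its median log2 change against untreated astrocytes was -0.26 over the 4252 probe sets above the median, so changes at this dose are also given relative to that shift. The poly-A spike-in controls were 2.32-fold brighter there than in untreated astrocytes, 1.21 in log2. Scaling to them, an alternative chosen after seeing the data, lowers changes of all probe sets by that factor wherever the floor does not limit them. Shares and medians over all probe sets are not given on that scale, so counts and medians on it are not read as particular to any gene list. Signals near the 3' end over those near the 5' end were 10.6 for actin and 1.90 for Gapdh at 100 µg/ml, and 8.95 and 2.66 in untreated astrocytes. The part of these differences in the results was not tested.

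At 100 µg/ml, astrocytes had less Casp2, Casp6, Casp1 and Ccng1 RNA than untreated astrocytes and a similar level of Bax, Bcl2 and Bcl2l1. They had more Cdkn1a RNA on the deposited scale. When scaled to the spike-ins, all of these were lower at the brightest probe set of each gene. As deposited, 4 of the 9 genes were at least 2-fold lower and 0 at least 2-fold higher. Their median change was 0.02. Among the 14 probe sets above the median signal, 5 were at least 2-fold lower, where 19.0% of all 4252 such probe sets were, and 1 was at least 2-fold higher, where 6.63% were. Without that filter, 8 of 25 were lower and 1 was higher, against 14.6% and 6.06% of all 8740 probe sets. The choice of the genes used these values, so nothing is read from the shares. In bulk RNA, fewer cells of a type and less RNA per cell cannot be told apart. Of 9 measured astrocyte markers, 2 were at least 2-fold lower on the same array, Slc1a3, a glutamate transporter (-2.04, its probe sets from -2.43 to 0.13), and Aqp4, a water channel (-1.15), and 0 were higher, with a median of -0.38. On the spike-in scale 6 were at least 2-fold lower and 0 higher, with a median of -1.41. As deposited, the summed signal of the 9 markers was 34969 at 100 µg/ml and 37737 in untreated astrocytes. Their part in the lower signals was not tested.

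**Figure D1:**
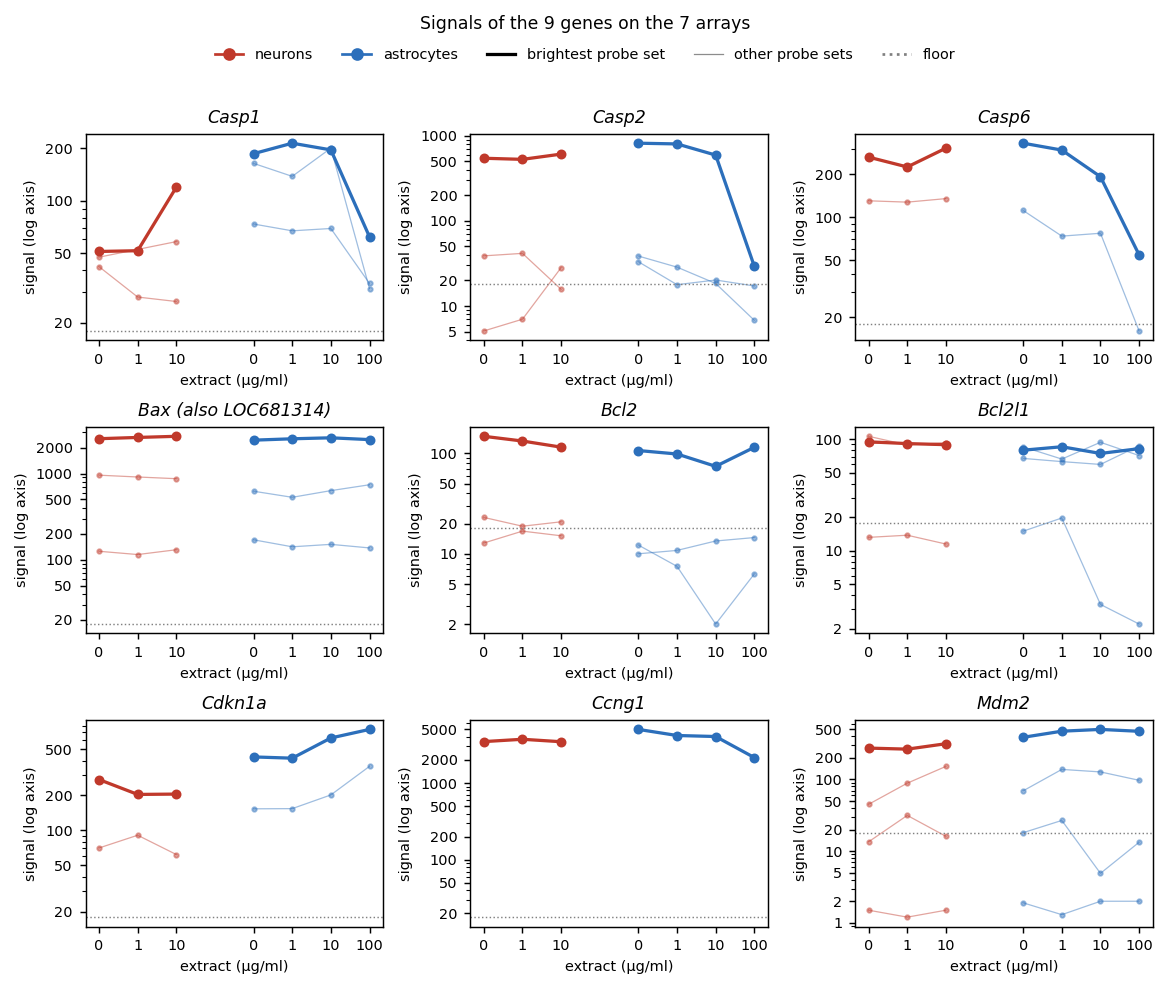
Deposited signal (log axis) of every probe set of the 9 genes against dose in µg/ml, with doses equally spaced, 1 point per array. Thick lines are the brightest probe set of a gene, thin lines the others, and the dotted line is the floor of 17.9. The brightest Casp2 probe set is at 29.3 in astrocytes at 100 µg/ml and between 526.6 and 814.9 on the other 6 arrays.

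Casp2 encodes caspase 2, a protease activated in large protein platforms. Its brightest probe set (U77933_at) had signals of 542.6, 526.6 and 606.9 in neurons, from 0 through 1 to 10 µg/ml. In astrocytes, from 0 through 1 and 10 to 100 µg/ml, it had 814.9, 799.1, 591.1 and 29.3. The single array at 100 µg/ml was far below all the others, and those 6 lay between 526.6 and 814.9. The signal there was 3.60% of that in untreated astrocytes, 27.8-fold lower, a log2 change of -4.80, or -4.54 relative to the shift of all probe sets. The gene's other probe sets were dim: one had 33.1, 17.8, 20.2 and 17.2 and the other 38.6, 28.6, 18.4 and 6.8 over the astrocyte doses. Both were below the floor at 100 µg/ml, so that they give only bounds, at least 1.85-fold and at least 2.16-fold lower. The size of the Casp2 change thus rests on 1 probe set, and the mean over all 3, floored values included, was -2.26. In neurons the dim probe sets had 38.8, 41.5 and 15.7, and 5.1, 7 and 28.2. They disagreed at 10 µg/ml, as bounds of at least 2.17-fold lower and at least 1.58-fold higher. In astrocytes at 10 µg/ml the latter probe set was 2.10-fold lower (-1.07).

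Casp6 encodes caspase 6, an executioner caspase that cuts lamin A and is known for its role in axon degeneration. Signals at its brightest probe set (AF025670_g_at) were 264.4, 225.6 and 305.6 in neurons and 331.1, 296.3, 192.7 and 54.6 in astrocytes, in the same order of doses. Each treated astrocyte array was below the untreated one, and the 100 µg/ml array was the lowest. Log2 changes were -0.16, -0.78 and -2.60 with 1, 10 and 100 µg/ml, the last a 6.06-fold lower signal, or -2.34 relative to the shift. The other probe set had 111.8, 73.9, 77.4 and 16 in astrocytes, the last under the floor, and so was at least 6.25-fold lower at 100 µg/ml. Both probe sets of Casp6 were therefore called lower. In neurons this dimmer probe set had 130.7, 127.9 and 135.4.

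Casp1, the inflammatory caspase, had signals of 51.1, 51.6 and 119.3 in neurons and of 185.8, 213.3, 195.3 and 62 in astrocytes, low to high dose, at its brightest probe set (S79676_s_at). Astrocytes at 0 to 10 µg/ml were all above the neuron arrays, and the 100 µg/ml array lay among them. The log2 change at 100 µg/ml was -1.58, or -1.32 relative to the shift. The other probe sets gave -2.38, with 31.3 at 100 µg/ml against 163.4 in untreated astrocytes, and -1.13, with 33.5 against 73.4. All 3 probe sets of Casp1 were thus at least 2-fold lower at 100 µg/ml.

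In neurons at 10 µg/ml the probe sets of Casp1 disagreed. The brightest was 2.33-fold higher than in untreated neurons, a log2 change of 1.22, and was the only one of the 9 genes called in neurons. The others had 58.2 at 10 µg/ml against 47.4 untreated, a change of 0.30, and 26.4 against 41.8, a change of -0.66. None of the 3 had a mean signal above the median in neurons, and the change was 0.29 as the mean over probe sets, 0.58 with the floor at the median signal and 0.79 on the spike-in scale.

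**Figure D2:**
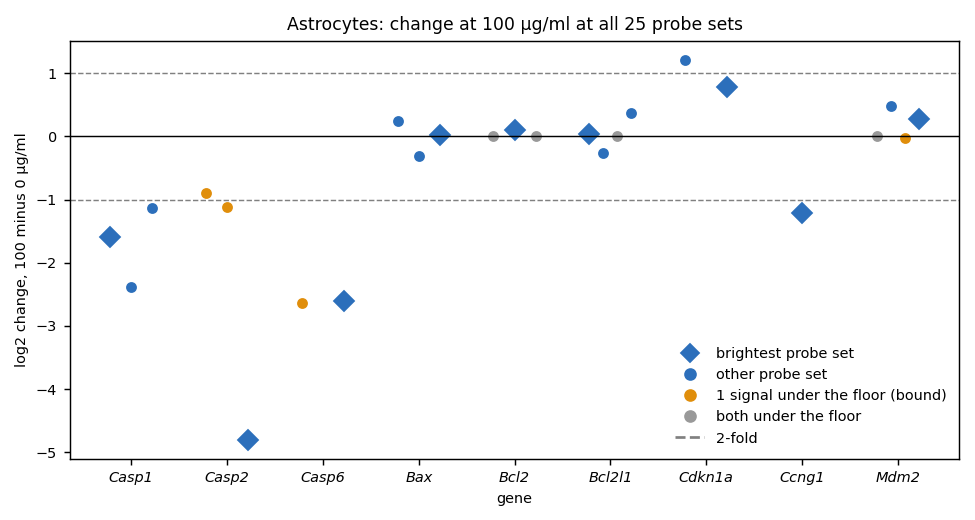
Log2 change at 100 µg/ml against untreated astrocytes for all 25 probe sets, by gene; diamonds are the brightest probe set of a gene and dashed lines mark 2-fold. Orange points are bounds, with 1 signal under the floor, and grey points have both under the floor. All probe sets of Casp1 and Casp6 lie below -1, whereas those of Casp2 run from -4.80 to -0.89.

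Markers of microglia and macrophages differed between the arrays beside Casp1, a gene known from such cells. Of the 13 markers listed, 10 were measured, and their summed signal was 1381, 987 and 1177 in neurons and 6777, 7769, 8558 and 3997 in astrocytes, low to high dose. On all neuron arrays 6 of the 10 were below all astrocyte arrays. At 100 µg/ml, 3 were at least 2-fold lower than in untreated astrocytes: Ptpn6, a phosphatase of blood cells (-4.23), Aif1, the calcium-binding protein Iba1 (-2.71), and Cx3cr1, the fractalkine receptor (-1.72). The 3 probe sets of Aif1 disagreed, running from -2.71 to 0.35. Fcgr2b, an inhibitory receptor for immunoglobulin, was higher (2.23), and the median of the list was -0.24. Of all probe sets without a filter, 14.6% were at least 2-fold lower and 6.06% higher as deposited. On the spike-in scale 7 of the 10 markers were lower and 1 was higher, with a median of -1.45. None of the 10 was at 0, but Csf1r had signals of 7.6 to 29 and Itgam of 1.1 to 29 over the 7 arrays, near or under the floor. The part of these markers in the signals of Casp1 was not tested.

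**Figure D3:**
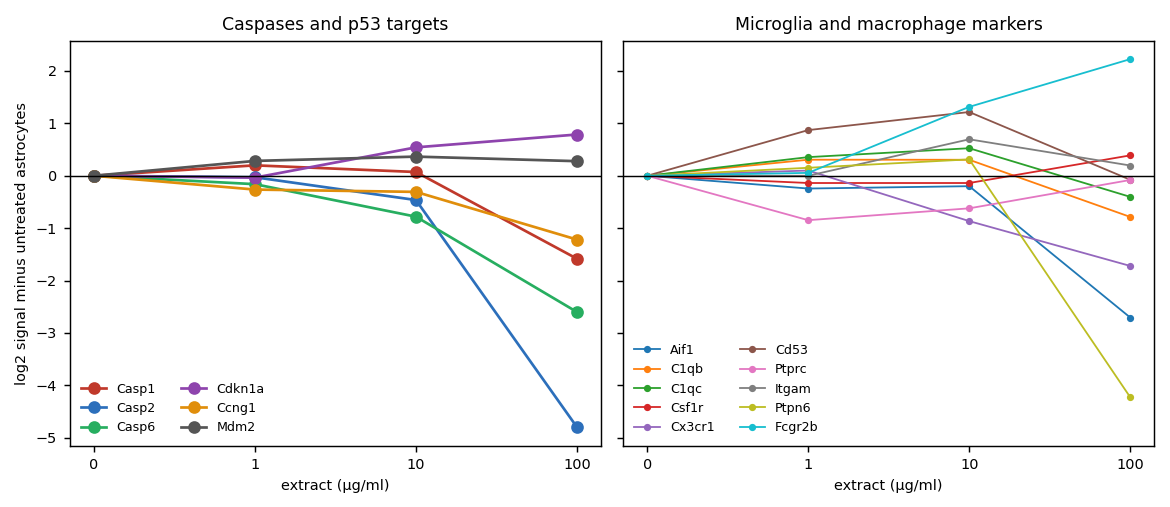
Log2 signal minus that of untreated astrocytes, with the floor applied, against dose in µg/ml (equally spaced) in astrocytes; left, Casp1, Casp2, Casp6, Cdkn1a, Ccng1 and Mdm2, right, the 10 measured markers of microglia and macrophages, 1 point per array. Among the 6 genes Casp2 is lowest at 100 µg/ml (-4.80) and Cdkn1a highest (0.79), and Ptpn6 is the lowest marker (-4.23).

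The Bcl2 family members were flat by comparison. Bax had signals of 2536, 2623.3 and 2704.2 in neurons and 2439.4, 2531, 2597.8 and 2476.3 in astrocytes, low to high dose, at its brightest probe set (U59184_at), a log2 change of 0.02 at 100 µg/ml. The 7 arrays spanned only 1.11-fold. Its other probe sets gave 0.25 and -0.31 at that dose, in opposite directions. The annotation gives all 3 probe sets to both Bax and LOC681314, so signals of these genes cannot be told apart.

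Bcl2, the founding inhibitor of the family, had signals of 147.4, 132.3 and 115 in neurons and 106.4, 98.3, 74.1 and 114.5 in astrocytes over the same doses at its brightest probe set (L14680_g_at). Neurons lay above astrocytes on every array, the nearest being 115 in neurons at 10 µg/ml and 114.5 in astrocytes at 100 µg/ml. Within astrocytes the 10 and 100 µg/ml arrays differed from the untreated one by -0.52 and 0.11 in log2, and within neurons the 1 and 10 µg/ml arrays did by -0.16 and -0.36. The other probe sets of Bcl2 had at most 23 on any array, and one of them was under the floor throughout.

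Bcl2l1 had signals of 95.1, 91.7 and 89.7 in neurons and 80, 85.9, 74.8 and 82.6 in astrocytes over the same doses at its brightest probe set (S78284_s_at). All 7 arrays lay within 1.27-fold, and its log2 change at 100 µg/ml was 0.05. Other probe sets gave -0.26 and 0.38 at that dose, and the remaining one had at most 19.7. On the spike-in scale, Bax, Bcl2 and Bcl2l1 were lower at 100 µg/ml than in untreated astrocytes, by -1.19, -1.11 and -1.17.

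Cdkn1a had signals of 274.3, 204.2 and 205.6 in neurons and 429.7, 419.2, 625.7 and 741.6 in astrocytes, low to high dose, at its brightest probe set (U24174_at). The highest neuron array was below the lowest astrocyte array, and in astrocytes the 10 and 100 µg/ml arrays were above the other 2. The log2 change in astrocytes was -0.04 at 1, 0.54 at 10 and 0.79 at 100 µg/ml as deposited, or 1.05 relative to the shift at 100 µg/ml, but it was -0.37 at 10 and -0.42 at 100 µg/ml on the spike-in scale. The other probe set had 153.5, 154.1, 202.2 and 356.4 in astrocytes, 2.32-fold higher at 100 µg/ml (1.22). The spike-ins were brighter there by nearly the same factor, 2.32-fold, so that scale put this probe set about level with untreated. In neurons at 10 µg/ml the 2 probe sets were lower than untreated, by -0.42 and -0.19. At 1 µg/ml they disagreed, at -0.43 and 0.36. Of 7 measured cell cycle genes, 4 fell 2-fold or more with 100 µg/ml as deposited. They were Mcm5 (-2.18), Cdc20 (-2.11), Cdk1 (-1.97) and Top2a (-1.30). Ccnb1 (-0.88), Pcna (-0.22) and Ccnd1 (0.07, its probe sets from -0.57 to 0.29) stayed within 2-fold, and the list's median was -1.30. Of all probe sets without a filter, 14.6% fell that far. A link of these genes to Cdkn1a was not tested. The probe sets of Top2a ran from -1.30 to -0.38, and on the spike-in scale all 7 genes were at least 2-fold lower, with a median of -2.51.

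Mdm2 had signals of 273.6, 264.6 and 314.9 in neurons and 387, 471, 498.6 and 469.4 in astrocytes over the same doses at its brightest probe set (rc_AI639488_at). Neurons were below astrocytes on every array, and the treated astrocyte arrays were above the untreated one by 0.28, 0.37 and 0.28 in log2 as deposited, though on the spike-in scale the last 2 were -0.54 and -0.93. A dimmer probe set (AA108308_s_at) had 45, 88.7 and 152 in neurons and 69.4, 138, 127.3 and 97.3 in astrocytes. In neurons at 10 µg/ml it was 3.38-fold higher than untreated (1.76), where the brightest gave 0.20. This was the only called probe set among the 14 of these genes above the median in neurons at 10 µg/ml, where 0.764% of all such probe sets were called. The other probe sets of Mdm2 had at most 31.5 on any array.

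Ccng1 has a single probe set (X70871_at), with signals of 3464.4, 3714.7 and 3451 in neurons and 4992.4, 4159.3, 4034 and 2146.2 in astrocytes over the same doses. The 100 µg/ml array was the lowest and untreated astrocytes the highest of all 7. Log2 changes were -0.26, -0.31 and -1.22 with 1, 10 and 100 µg/ml, the last a 2.33-fold lower signal, but -0.96 relative to the shift of all probe sets and so short of 2-fold on that scale. The p53 targets Cdkn1a and Ccng1 thus lay on opposite sides of untreated at this dose as deposited. Scaled to the spike-ins, the brightest Cdkn1a probe set and Ccng1 were both below it, at -0.42 and -2.43. The other Cdkn1a probe set was then about level with untreated.

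At the lower doses none of these genes was called at its brightest probe set apart from Casp1 in neurons at 10 µg/ml, on the deposited scale. Dimmer probe sets of Casp2 and Mdm2 that were called at 10 µg/ml are given above. In astrocytes at 1 µg/ml 0 of 9 genes and 0 of the 14 probe sets above the median were called, where 2.00% of all such probe sets were, and the changes ran from -0.26 to 0.28. At 10 µg/ml again 0 of 9 and 0 of 14 were called, where 6.51% of all were, and the changes ran from -0.78 (Casp6) to 0.54 (Cdkn1a). In neurons 0 of 9 genes and 0 of 14 probe sets were called at 1 µg/ml, where 0.561% of all were. All comparisons within a cell type share the same untreated array.

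Between the cell types, Cdkn1a was the only one of the 9 genes whose arrays did not overlap and whose mean log2 signals differed at least 2-fold. It averaged 228 ± 40.1 in neurons and 554 ± 157 in astrocytes (SD, n = 3 and 4 arrays of different doses), a difference in mean log2 of -1.25, and -1.47 at its other probe set. On the spike-in scale that difference was -0.07. Between the untreated arrays alone it was -0.65, short of 2-fold, and there Casp1 (-1.86) was the only 1 of the 9 genes called. Mdm2 averaged 284 ± 26.8 in neurons and 456 ± 48.2 in astrocytes, without overlap (-0.68), but on the spike-in scale it was higher in neurons (0.50). Bcl2 was higher in neurons, at 132 ± 16.2 against 98.3 ± 17.5 in astrocytes (0.43). The mean log2 spike-in signal was 6.58 to 7.58 on the neuron arrays and 7.69 to 8.90 on the astrocyte arrays. Scaling to it thus raises the difference of neurons from astrocytes by the same amount for every gene that the floor does not limit. Casp2 was then at 1.86, Casp6 at 1.74, Bcl2 at 1.61, Bcl2l1 at 1.37 and Bax at 1.25. Ccng1 turned from -0.05 to 1.14. These values are therefore not read as particular to these genes. Of the 17 probe sets of these genes above the median in either cell type, 1 (of Casp6, 131 ± 3.79 in neurons and 69.8 ± 39.7 in astrocytes) was called higher and 2 (of Cdkn1a) lower in neurons, where 13.1% and 8.11% of all 4709 were. Without the 100 µg/ml astrocyte array the Casp6 probe set averaged 87.7 ± 20.9 in astrocytes (SD, n = 3), still without overlap, and differed by 0.61, short of 2-fold. The brightest Casp6 probe set overlapped, at 0.55 with that array and -0.02 without it.

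Other differences between cell types depended on the probe set or on 1 array. Bcl2l1 was higher on every neuron array at 2 of its probe sets (0.19 and 0.48) and overlapped at the others. The first of these differences turned to -0.01 under quantile normalization. Ccng1 overlapped (-0.05), but without the 100 µg/ml astrocyte array it was lower on every neuron array (-0.31). At Bax, one probe set was higher on every neuron array (0.54), one lower on every neuron array (-0.28), and the brightest overlapped (0.06). Casp2 differed by 0.78 over all arrays and by -0.38 without the 100 µg/ml astrocyte array, so its direction rested on that array. Casp1 overlapped (-1.12) but did not without the 100 µg/ml astrocyte array (-1.54) or without the 10 µg/ml neuron array (-1.53), and on the spike-in scale its difference was 0.062. The labelled cell types were checked on marker lists. All 8 measured neuron markers were higher on every neuron array, with sums of 15578 to 16272 in neurons and 894 to 1873 in astrocytes. Of 9 measured astrocyte markers, 3 (S100b, Agt and Sparcl1) were higher on every astrocyte array and 2 (Slc1a3 and Aqp4) on every neuron array. Of the oligodendrocyte and fibroblast markers, 5 of 6 and 4 of 6 were lower on every neuron array, and all 7 measured cell cycle genes were higher there. The microglia markers summed to 987 to 1381 in neurons and 3997 to 8558 in astrocytes. The part of these cells in the differences, that of Cdkn1a included, was not tested.

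Other genes of the same pathways were taken from lists of 81 further genes, of which 25 were measured with 1 symbol per probe set. At 100 µg/ml in astrocytes 5 of the 25 were at least 2-fold higher and 4 lower than untreated, with a median of 0. Among all probe sets without a filter, 6.06% were higher and 14.6% lower. On the spike-in scale, which lowers log2 changes by 1.21 wherever the floor does not limit them, 2 (Gdf15 and Tnf) were higher and 12 lower. Their median was then -0.96, and no share of all probe sets is given on that scale. Of 10 caspases listed, the 3 above were measured and the others were not analysed here. Bcl2l2, another inhibitor of the family, and the pore formers Bak1 and Bok differed from untreated by 0.34, 0.30 and -0.18 as deposited, all within 2-fold, and by -0.87, -0.91 and -1.39 on the spike-in scale. Of 5 BH3-only genes, whose proteins trigger the pore formers, Hrk was higher, with signals of 776.4 at 100 µg/ml and 293 untreated (1.41), but its 4 probe sets ran from -0.48 to 1.41, and on the spike-in scale the change was 0.19.

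**Figure D4:**
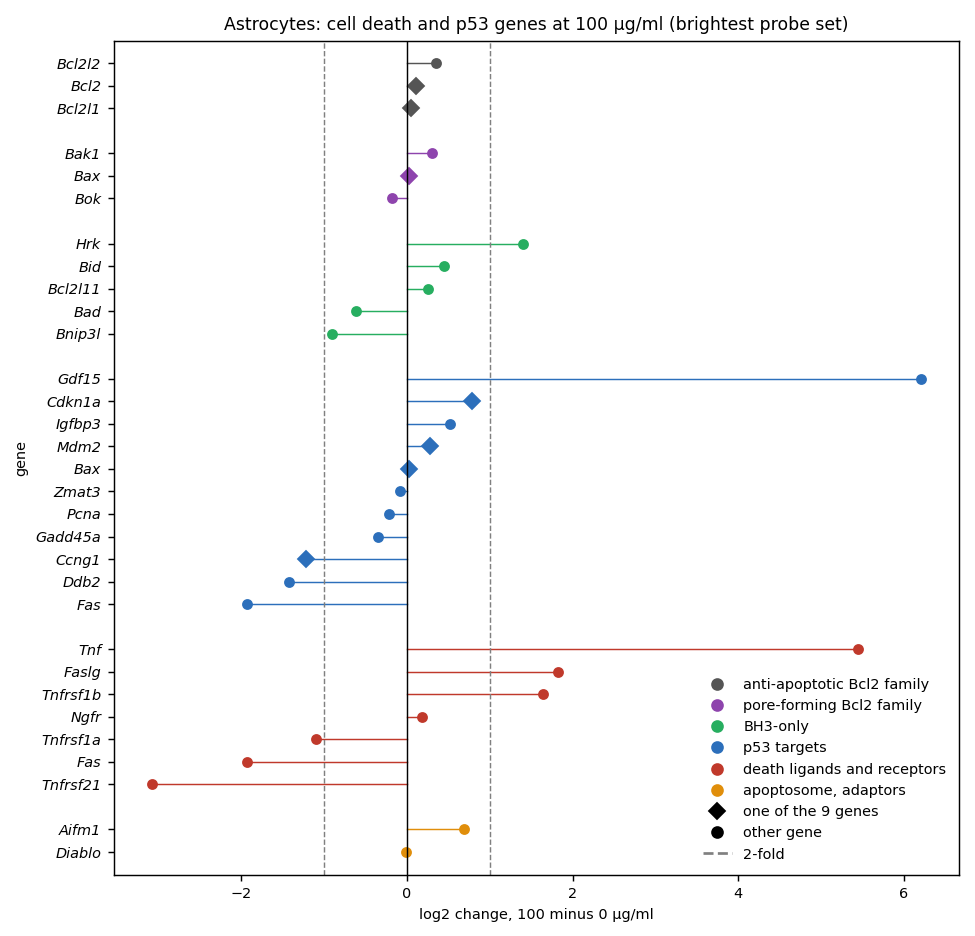
Log2 change at 100 µg/ml against untreated astrocytes for the measured genes of 6 pathway lists (anti-apoptotic, pore-forming and BH3-only Bcl2 family, p53 targets, death ligands and receptors, apoptosome and adaptors; the caspases are not drawn), each at its brightest probe set; diamonds are among the 9 genes, circles are other genes, and dashed lines mark 2-fold. Gdf15 (6.20) and Tnf (5.45) lie far to the right and Tnfrsf21 (-3.07) farthest to the left of the genes drawn, and the genes Bax and Fas stand in 2 lists each.

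Of 11 measured p53 targets, 1 was at least 2-fold higher and 3 were lower as deposited, with a median of -0.09, where 6.06% and 14.6% of all probe sets without a filter were. On the spike-in scale 1 was higher and 7 were lower, with a median of -1.30. Gdf15, a cytokine of stressed cells, had signals of 56.9, 28.6, 167.6 and 4196.8 in astrocytes at 0, 1, 10 and 100 µg/ml (6.20 at 100 µg/ml). Fas, the death receptor, had 102.9, 91.7, 152.5 and 27, a log2 change of -1.93. Ddb2, a DNA damage sensor, was dim, with 19.8 at 100 µg/ml and 53.2 untreated (-1.43), and Ccng1 was the other one that was lower. At their brightest probe sets, Cdkn1a and Mdm2 were above their untreated signals as deposited but not on the spike-in scale. Zmat3, Pcna and Gadd45a differed by -0.09, -0.22 and -0.36 as deposited. As deposited, the measured p53 targets lay on both sides of their untreated signals. On the spike-in scale, by brightest probe sets, only Gdf15 was above and the other 10 were below. The dimmer Cdkn1a probe set was then about level.

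Death ligands and receptors had 3 of 7 measured genes higher and 3 lower at 100 µg/ml as deposited, against the same shares of all probe sets, and 1 higher and 4 lower on the spike-in scale, with a median of -1.03. Tnf, the inflammatory ligand, had signals of 33.5, 6.2, 72.4 and 1464.8 in astrocytes over the doses (5.45). Faslg, the ligand of Fas, was dim, with 79.3 at 100 µg/ml and 22.4 untreated (1.82). Tnfrsf1b, a receptor for Tnf, had 196.1 and 63 (1.64), but its 2 probe sets ran from 0 to 1.64. On the spike-in scale the changes of Faslg and Tnfrsf1b were 0.61 and 0.43. The receptors Tnfrsf21 (178.4 and 1502.9, -3.07) and Tnfrsf1a (692.2 and 1480.1, -1.10) were lower, as was Fas. Diablo and Aifm1, mitochondrial proteins released in cell death, differed from untreated by -0.01 and 0.69 as deposited, and by -1.23 and -0.53 on the spike-in scale. Birc2 and Tp63 were under the floor on all arrays.

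The genes whose log2 signal followed a member most closely over the 7 arrays were named from 2732 candidates, for the 5 members that ranged at least 2-fold. Pearson's r was 0.997, 0.996 and 0.995 between Casp2 and Cnot2, Dcaf11 and Ppp2r5a, and 0.997, 0.989 and 0.989 between Casp6 and Papola, Pdcl and Atg16l1. Like Casp2, these genes were lowest at 100 µg/ml: Cnot2, a subunit of the deadenylase complex, had 166.4 there and 566.6 to 652.9 on the other arrays. Ccng1 was followed by Tjp1 (0.990), Nat1 (0.986) and Mfn2 (0.985), and Casp1 by Rpl26 (0.980), Dnm2 (0.947) and Cpt2 (0.938). Cdkn1a was followed by Plek (0.986), Cyp27a1 (0.984) and Slfn2 (0.984). Plek, a kinase substrate of blood cells, had 139.5, 118 and 99.1 in neurons and 380.9, 391.3, 886.4 and 818.9 in astrocytes over the doses. The points share the 7 arrays, the difference between cell types and the 100 µg/ml array, and the correlations are descriptions.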

How the data were processed

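RNA from neuron cultures (3 arrays) and astrocyte cultures (4 arrays) was amplified, biotin-labelled and hybridized to Affymetrix rat arrays, per the labels' protocols. The deposited values are signal intensities on a linear scale, made with GCOS per the submitters' processing notes (version and options: not given in the sources used here). Each array's 2%-trimmed mean lay between 500.731 and 500.874, so no further scaling was applied. Of 8799 probe sets, 59 controls were left out. Platform annotation gave 1 symbol to 7006 probe sets, several to 308 and none to 1426. Signals under the 25th percentile were raised to it (17.9), log2 was taken, and a fold from such a signal is a bound. Background shares used probe sets whose mean log2 signal in the cell type was above the median (79.9), or in either for the comparison of cell types. The probe set with the highest mean log2 signal stood for a gene.

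The members, the lists and the rules were chosen with earlier results of these data known. Named were all members, up to 4 genes per pathway list with the largest change at 100 µg/ml among those at 2-fold, and the 3 genes most like each member that ranged 2-fold. Others were chosen after their values were seen. No test was made, since each combination has 1 array. That number limits the precision. The calculation was tested on simulated data. Promoter sequences are RefSeq's (GRCr8). Alternatives were quantile normalization, other floors, no filter, the mean over probe sets, centring, other references, subsets of arrays, and, chosen after seeing the data, scaling to 4 poly-A spike-in probe sets. Python 3.11.15, pandas 2.3.3, numpy 2.4.6 and matplotlib 3.10.9 were used.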

Additional observations from a re-analysis of the deposited data

How the results depend on the processing

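Of 432 values of the 9 genes under the alternatives, 395 stayed within 1.5-fold of the value as deposited and 37 moved further. The sign differed from that of the deposited value in 53, of which 25 were under scaling to the spike-ins, and 1 of the 53 was a difference of 2-fold or more as deposited (Casp1 between cell types). Quantile normalization, no floor and centring on the median moved none of them by that much. Scaling to the poly-A spike-ins, chosen after seeing the data, moved most. The genes called were then 5 at 10 µg/ml and 7 at 100 µg/ml in astrocytes, all lower, against 0 and 4 as deposited. In neurons at 10 µg/ml 0 were called, against 1. This scaling takes 0.91 and 1.21 off the log2 changes at 10 and 100 µg/ml in astrocytes for all probe sets that the floor does not limit. Between cell types it gave 3 genes against 1, and it turned Casp1 from -1.12 to 0.062. Shares of all probe sets called are not given on the spike-in scale, so nothing about these genes is read from its counts. In neurons at 10 µg/ml 0 genes were called with the floor at the median signal or with the mean over probe sets. Between cell types 2 were called at the shared doses only, and 1, Casp1 in place of Cdkn1a, between the untreated arrays only. When each array was left out in turn, from 1 to 2 were called. It was 2 without the 10 µg/ml neuron array and 2 without the 100 µg/ml astrocyte array. The 4 genes lower at 100 µg/ml became 3 lower and 1 higher when centred, and 3 lower against the 1 µg/ml array. Casp2 at that dose was -3.35 with the floor at the median signal. Without the signal filter, probe sets called in all were 466, 728 and 1805 in astrocytes at 1, 10 and 100 µg/ml, and 355 and 357 in neurons at 1 and 10 µg/ml, against 85, 277 and 1088, and 25 and 34, with it. Signals near 17.9 give bounds only. No paired analysis was possible because each combination of cell type and dose has 1 array and no result comes from a test.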

Other observations

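At 10 µg/ml in astrocytes, 728 of all 8740 probe sets were called in either direction without a filter. Of the 25 other pathway genes measured, 6 were at least 2-fold higher and 1 lower than untreated. In some of them the change was larger than at 100 µg/ml. On the spike-in scale 0 were higher and 10 lower, with Bid at 0.56 and Igfbp3 at 0.19. These genes were chosen after their values were seen. Bid, a BH3-only protein that is cut by caspase 8, had signals of 295.7, 294, 816.7 and 401.5 in astrocytes at 0, 1, 10 and 100 µg/ml, a log2 change of 1.47 at 10 µg/ml and 0.44 at 100 µg/ml. Igfbp3, a binding protein of insulin-like growth factors, had 214.1, 243.8, 459.3 and 306.4, a change of 1.10 at 10 µg/ml. Tnfrsf1a, the main receptor for Tnf, had 1480.1, 1803, 471.4 and 692.2, and so was lowest at 10 µg/ml (-1.65). Aifm1 had 1140.3, 1229.8 and 1153.4 in neurons at 0, 1 and 10 µg/ml, against 558.3, 1109, 1209 and 897.6 in astrocytes over their doses, so that the untreated astrocyte array was the low one of the 7. Each rests on a single probe set except Igfbp3, which has 2.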
